A study of Homo sapiens with 16 samples.

Results

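L1236 is an established human Hodgkin lymphoma cell line, and the values described are the absolute RNA signals of its uninduced cells. The members are the 4 arrays titled Un in the gene-level table, out of 16 samples in the series. The 16 come from 8 hybridised arrays, since every array was deposited in a gene-level and in an exon-level summary. All cells, uninduced ones included, were L1236 spin-infected with a retrovirus that carries a short hairpin RNA against RELB, whose expression doxycycline induces. The uninduced cells were infected in the same way and did not receive that induction. The cells were cultured in RPMI medium with fetal bovine serum and belong to 1 cell line. The titles give arrays 1 and 2 the code B_1 and arrays 3 and 4 the code B_4, and the labels do not say what the code means. No label states that the 4 arrays were hybridised with RNA of separate cultures, so the array spread, and with it any p-value, may be technical only. Induced arrays were not compared here.

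The malignant cells of classical Hodgkin lymphoma, called Hodgkin and Reed-Sternberg cells, derive from germinal centre B cells that have shut down much of the B-cell programme. They are known for constant NF-kB and JAK-STAT signalling, for secreted chemokines that draw in other immune cells, and for surface ligands that restrain T cells. RELB is the DNA-binding partner of the p52 product of NFKB2 in the alternative NF-kB pathway.

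The table holds 33297 probe sets, of which 19460 carry exactly 1 gene symbol and were ranked by mean log2 signal over the 4 arrays. Means ran from 2.52 to 13.64, with a median of 6.31. Olfactory receptor genes, which are read mainly in the nose, served as a measure of signal without expression: their 360 probe sets had a median of 3.78 and ran from 2.83 to 6.80. A probe set was called at background when its mean was at or under the 95th percentile of these receptors, a ceiling of 5.23. It was called bright when it lay in the top 10% of ranked probe sets, at 9.19 or more, and between otherwise. By these rules 6341 probe sets (32.6%) were at background, 11173 were between and 1946 were bright. With the brightest probe set kept for each of 18395 genes, 6025 genes (32.8%) were at background, 10569 were between and 1801 (9.79%) were bright. The 4 arrays gave nearly the same order, with Spearman correlations of 0.991 to 0.996 over the probe sets, which are not independent replicates. The median SD of a probe set over the arrays was 0.13, and 1690 of the 1946 top probe sets were in the top 10% of each array.

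Signal depends on how well a probe set binds its target, so ranks describe probe sets and not transcript numbers. The class between does not by itself show expression. Of 14 measured genes of tissues outside blood, 7 were between, among them myelin basic protein MBP at 6.84 ± 0.25, the lung surfactant gene SFTPC at 5.75 ± 0.11 and the astrocyte gene GFAP at 5.72 ± 0.23 (mean ± SD, n = 4, as for all values written this way). The exon-level summary of the same arrays gave a second but not an independent reading, with its own receptor ceiling of 5.58. All 4428 features listed in both summaries had identical values in the 4 arrays, so some likeness of the readings is built in. The gene's exon-level mean was above that ceiling for 1765 of 1769 bright genes, 8928 of 10112 genes between and 182 of 5558 genes at background.

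**Figure D1:**
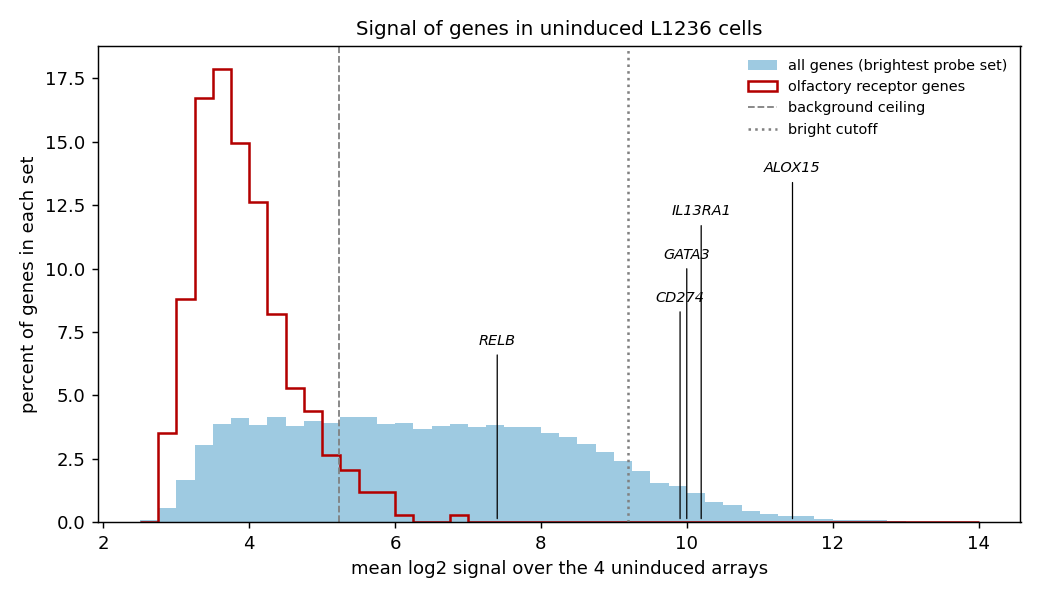
Share of genes, each by its brightest probe set (y axis, percent of each set), by mean log2 signal over the 4 uninduced arrays (x axis), for all 18395 genes (filled) and for olfactory receptor genes (outline). The dashed line is the background ceiling at 5.23 and the dotted line the bright cutoff at 9.19. ALOX15, IL13RA1, GATA3 and CD274 lie right of the bright cutoff, and RELB lies at 7.40 between the lines.

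The top of the ranking was mostly held by housekeeping genes. The brightest was EEF1A1, the elongation factor that brings aminoacyl-tRNA to the ribosome, at 13.64 ± 0.033, followed by beta-actin ACTB at 13.50 ± 0.087. The glycolytic enzymes GAPDH and ENO1 ranked 5 and 6 with 13.46 ± 0.13 and 13.35 ± 0.11. Among the 25 highest probe sets were those of the ribosomal protein genes RPL5, RPL18, RPL4, RPL8 and RPS4X, the tubulin gene TUBB with 3 probe sets of identical values, the chaperones HSPA8 and HSP90AB1, the disulfide isomerase PDIA6, the mitochondrial ATP synthase subunit ATP5F1B, and the nuclear long noncoding RNA MALAT1. Of the 22 measured ribosomal protein genes 21 were bright, with a list median of 11.79 against 6.32 over all genes. The translation factors had 11 of 12 bright.

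Some high ranks rest on 1 probe set that other readings do not share. FAF2, which takes part in protein degradation at the endoplasmic reticulum, ranked 4 at 13.46, while its other probe set gave 9.44 and its exon-level mean was 9.18. SH3KBP1, an adaptor of receptor uptake, stood at 12.73 on one probe set and 7.79 on the other, with an exon-level mean of 7.65. PLCG2, the phospholipase downstream of the B-cell receptor, ranked 27 at 12.64, against 6.15 on its second probe set and an exon-level mean of 5.61 with 17 of 35 exon-level probe sets above the ceiling. MALAT1 gave 12.85 on one probe set and 8.05 on the other. RPL5 gave 13.14 and 12.41 on bright probe sets but 8.43 on another. Over all 788 genes with several probe sets, 147 had probe sets more than 2 log2 apart, and 11 were bright on one and at background on another.

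All 4 marker genes of this line, which were chosen with earlier results of these arrays known, were bright. ALOX15, the lipoxygenase that oxidises arachidonic acid, gave 11.44, 11.33, 11.62 and 11.42 in arrays 1 to 4, a mean of 11.45 ± 0.12. The arrays of the 2 codes overlapped for it, and 11 of 11 of its exon-level probe sets were above the ceiling. IL13RA1, the receptor chain that binds IL-13 and pairs with the IL-4 receptor, gave 10.48, 10.29, 10.09 and 9.94, a mean of 10.20 ± 0.24. Its exon-level probe sets were above the ceiling in 15 of 15 cases. GATA3, the transcription factor best known from T helper cells, gave 10.43, 10.39, 9.57 and 9.60, a mean of 9.999 ± 0.48. CD274, which encodes the T-cell inhibiting ligand PD-L1, gave 10.38, 10.31, 9.56 and 9.38, a mean of 9.91 ± 0.51. For GATA3 and CD274 both B_1 arrays lay above both B_4 arrays, by more than the gap within either code, and every array was above the bright cutoff.

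Sequence just upstream of these genes is shown because the CpG content of promoters differed between the signal classes. RefSeq promoter windows (GRCh38.p14) were matched by symbol for 14240 of the 18395 genes, and the 250 bases before the start were read. The median number of CpG dinucleotides was 22 in 1540 bright genes, 20 in 8277 genes between and 7 in 4423 genes at background, against 18 in the 14240 matched genes together and 11 in all 27305 windows of the table. The 80 bases before the start are printed 5′ to 3′ on the transcribed strand with each CpG in capitals, first for 3 bright marker genes and then for albumin ALB, at background with 3.66. ALOX15 has no entry in the table. The intervals are chr9:5450462-5450541 (plus strand) for CD274, chr10:8045253-8045332 (plus) for GATA3, chrX:118727526-118727605 (plus) for IL13RA1 and chr4:73404207-73404286 (plus) for ALB.
CD274: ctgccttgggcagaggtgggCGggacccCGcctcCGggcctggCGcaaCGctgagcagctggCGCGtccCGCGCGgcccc
GATA3: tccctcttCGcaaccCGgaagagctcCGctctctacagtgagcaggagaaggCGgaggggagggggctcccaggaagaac
IL13RA1: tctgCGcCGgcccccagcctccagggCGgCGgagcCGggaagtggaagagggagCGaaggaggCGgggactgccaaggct
ALB: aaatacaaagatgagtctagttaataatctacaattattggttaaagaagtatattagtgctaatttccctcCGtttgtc
Over the 250 bases, IL13RA1 held 28 CpG, CD274 16, GATA3 11 and ALB 3. CD274 and GATA3 thus lay under the median of 22 in bright genes and also under that of 18 in the matched genes. There were further exceptions: HPD, a liver enzyme of tyrosine breakdown, was at background with 29 CpG, and CXCL10 was bright with 3. The core CCGGAA of ETS factor sites, on either strand, occurred in 30.6% of bright, 23.2% of between and 9.07% of background windows, in 19.6% of the matched genes and in 14.8% of all windows. It contains a CpG, so the measures overlap. TATAAA, on the transcribed strand from 50 to 11 bases before the start, occurred in 3.05%, 2.33% and 5.81% of the same classes, in 3.49% of the matched genes and in 2.81% of all windows. A match of letters is a description and not a binding site.

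The B-cell list was mostly between the cutoffs, as were 10569 of all 18395 genes. Of its 24 measured genes, 3 were bright, 16 between and 5 at background, with a median of 6.26. The bright share was 12.5% and the background share 20.8%, against 9.79% and 32.8% of all genes. PAX5, the factor that commits cells to the B lineage, gave 9.01, 9.12, 8.98 and 9.08 in the 4 arrays, a mean of 9.05 ± 0.065 just under the bright cutoff, and 12 of 12 of its exon-level probe sets were above the ceiling. POU2AF1, a coactivator of octamer-binding factors, was at 7.57 ± 0.15. The signalling chains of the B-cell receptor were lower: CD79B gave 5.98, 6.23, 6.17 and 6.92 and CD79A gave 5.83, 5.55, 5.70 and 5.84. Array 4 held the highest value of both, by more than the range of the other arrays for CD79B. CD79A had 3 of 10 exon-level probe sets above the ceiling and an exon-level mean under it, at 5.33. MS4A1, the B-cell surface protein CD20, was at background in every array with a mean of 4.49 ± 0.10, as were the complement receptor CR2 at 3.15, CD24 at 3.26 and the adaptor BANK1 at 3.73. The bright members were CCR7, the receptor that guides lymphocytes to lymph nodes, at 12.09 ± 0.29, the zinc finger factor IKZF1 at 10.26 ± 0.11 and the tetraspanin CD37 at 9.39 ± 0.29. The B_4 mean of CD37, 9.15, was under the bright cutoff.

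Of 10 plasma cell genes, IRF4 (10.90 ± 0.11) and XBP1 (9.98 ± 0.096), factors of secretory differentiation, were bright, while the joining chain JCHAIN, CD38 and SLAMF7 were at background with 4.68, 4.58 and 4.29. PRDM1, the factor that ends the B-cell programme, gave 7.28 ± 0.22 and syndecan SDC1 gave 6.81 ± 0.055, both between.

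The Hodgkin and Reed-Sternberg list had 16 of 30 genes bright (53.3%, against 9.79% of all genes), 12 between and 2 at background. This list was compiled with earlier results of these arrays known. Besides the 4 markers, the bright genes included the lymphotoxin gene LTA at 11.86 ± 0.27, cyclin CCND2 at 11.17 ± 0.12, the AP-1 factor BATF3 at 10.93 ± 0.10 and PDCD1LG2, which encodes PD-L2, the other ligand of PD-1, at 9.46 ± 0.42. The B_4 mean of PDCD1LG2, 9.12, was under the bright cutoff. Of the 6 defining markers of these cells only IRF4 was bright. FSCN1, an actin-bundling protein, was at 8.75 ± 0.20, the chemokines CCL22 and CCL17 at 7.57 ± 0.26 and 6.59 ± 0.10, the CD30 antigen TNFRSF8 at 6.89 ± 0.21 and the adaptor TRAF1 at 5.87 ± 0.13. For TNFRSF8 the arrays gave 6.79, 6.65, 7.04 and 7.09, and 13 of 16 exon-level probe sets were above the ceiling. For TRAF1 they gave 5.78, 5.998, 5.73 and 5.97, and 7 of 13 exon-level probe sets were above it. CCL17 had 4 of 6 above it and an exon-level mean of 5.69, next to the ceiling. The macrophage growth factor receptor CSF1R was at background at 5.09 ± 0.065.

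**Figure D2:**
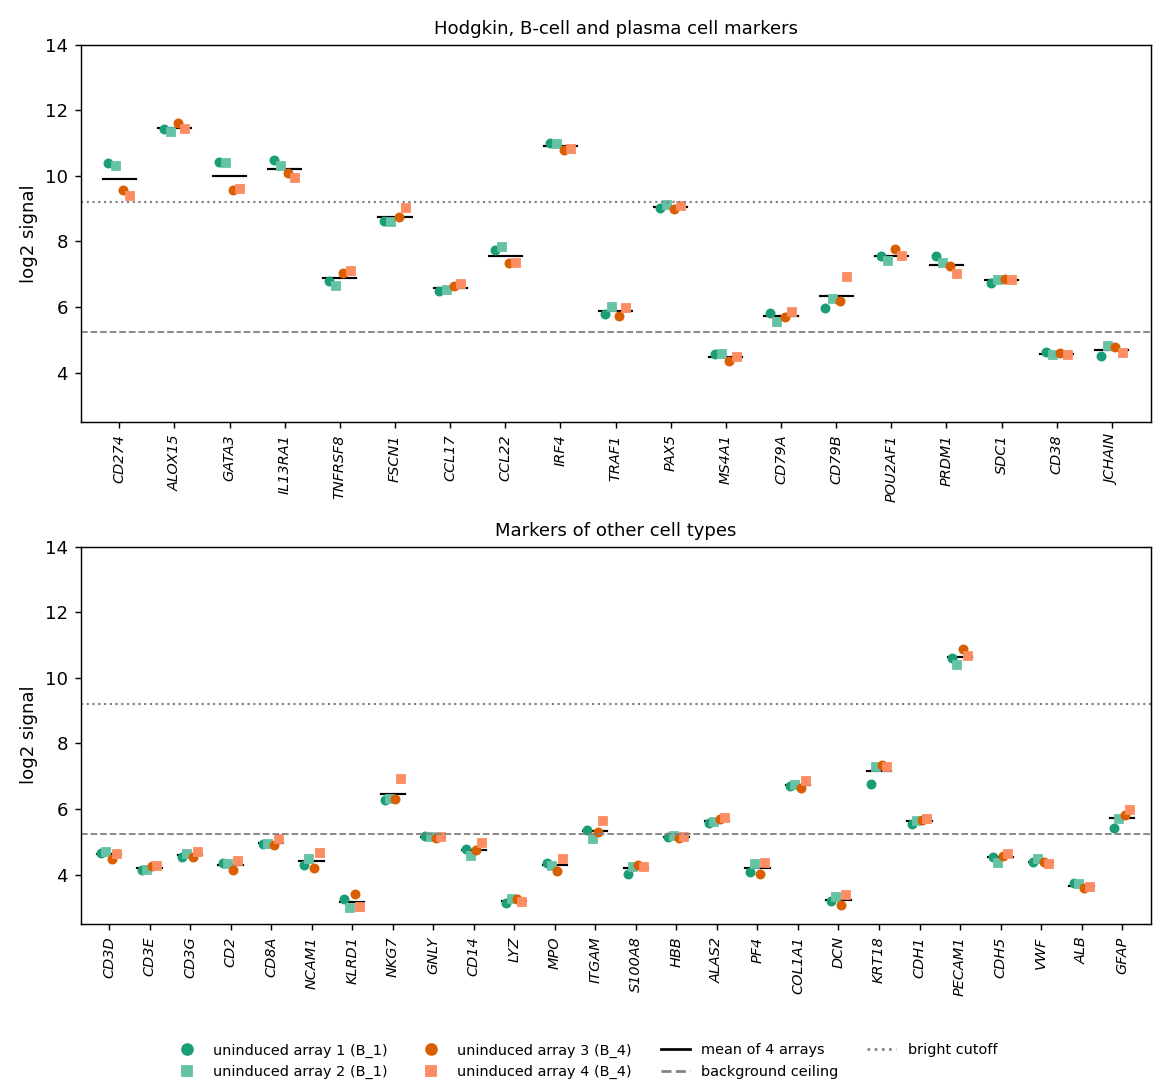
Log2 signal of defining lineage markers in each uninduced array (y axis; points are arrays, B_1 green and B_4 orange; black bars are means of 4 arrays), with the background ceiling dashed and the bright cutoff dotted. The 4 markers of this line and IRF4 lie above the dotted line, MS4A1, CD38 and JCHAIN lie under the dashed line, and among markers of other cell types PECAM1 alone lies above the dotted line.

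Markers of other blood lineages were low. All 5 measured defining T-cell markers were at background, from 4.20 for CD3E to 4.96 for CD8A, and their summed linear signal ran from 112 to 124 over the arrays. In RNA of whole cultures, fewer cells of a type and less RNA per cell cannot be told apart. Over the whole T-cell list none of 18 genes was bright and 9 were at background. LEF1, a transcription factor of the Wnt pathway, was the highest of them at 9.02 ± 0.21, followed by CD7 at 7.87 ± 0.15 and the adaptor SH2D1A at 7.64 ± 0.27. Of 4 defining natural killer cell markers NKG7 was between at 6.44 ± 0.30 and the others were at background, KLRD1 at 3.17, NCAM1 at 4.41 and GNLY at 5.14. The one bright gene of that list was EOMES, a T-box factor of cytotoxic lymphocytes, which gave 9.40, 9.19, 9.27 and 9.12 and had 7 of 7 exon-level probe sets above the ceiling. The related T-box factor TBX21 was at 6.15 ± 0.051.

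Of 15 myeloid genes 10 were at background, among them lysozyme LYZ at 3.20 ± 0.056, CD14 at 4.76 ± 0.17 and myeloperoxidase MPO at 4.29 ± 0.16. Neutrophil elastase ELANE was between at 6.97 ± 0.14 with 5 of 5 exon-level probe sets above the ceiling. Beta-globin HBB was at background at 5.14 ± 0.029, as was the platelet factor PF4 at 4.19 ± 0.17. The erythroid factor KLF1 was between at 6.74 ± 0.18.

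Outside blood, 7 of 14 fibroblast and stroma genes were at background, down to decorin DCN at 3.24 ± 0.14. The collagens COL1A1, COL1A2 and COL3A1 were between at 6.73, 5.75 and 5.71. Vimentin VIM, an intermediate filament that lymphoid cells also carry, was bright at 10.78 ± 0.054. FAP, a surface protease known from activated fibroblasts, gave 8.97, 8.91, 8.26 and 8.09 with 26 of 27 exon-level probe sets above the ceiling. Its B_1 arrays were above its B_4 arrays. In epithelium KRT18 and KRT8 were highest at 7.17 ± 0.28 and 6.86 ± 0.14, and no gene was bright. In endothelium PECAM1, an adhesion protein that leukocytes also carry, was bright at 10.64 ± 0.20 on one probe set and 4.94 on the other. All 4 of its exon-level probe sets were above the ceiling, with a mean of 9.85. The cadherin CDH5 and von Willebrand factor VWF were at background at 4.52 ± 0.11 and 4.38 ± 0.064.

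In the NF-kB list all 21 measured genes were above background, 5 of them bright. Among the subunits REL was at 9.96 ± 0.076, NFKB1 at 9.94 ± 0.16 and NFKB2 at 9.28 ± 0.046, all bright, while RELA was between at 8.45 ± 0.047. RELB, the target of the hairpin, gave 7.23, 7.38, 7.54 and 7.45 in the uninduced arrays, a mean of 7.40 ± 0.13 at rank 6492, with 11 of 11 exon-level probe sets above the ceiling. With genes of hair keratin-associated proteins, taste receptors, defensins and lens crystallins as the background reference the ceiling was 7.50, which is above RELB. NFKBIA, the inhibitor that NF-kB itself induces, was the highest of the list at 11.38 ± 0.18, and BIRC2, a ubiquitin ligase of TNF receptor complexes, was bright at 9.28 ± 0.14. The B_4 mean of BIRC2, 9.17, was just under the bright cutoff. The least bright members were NFKBIZ at 5.71 ± 0.15 and TRAF1.

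Of 23 genes of the IL-4 and IL-13 receptor and JAK-STAT list, 8 were bright (34.8%) and 3 at background. STAT6, the factor that IL-4 and IL-13 activate, was highest and varied little, with 10.78, 10.75, 10.73 and 10.76 in the 4 arrays. The receptor chains IL13RA1, IL4R (9.84 ± 0.11) and IL2RG (10.16 ± 0.10) were all bright. The decoy receptor IL13RA2 was among the lowest signals of all, at 3.01 ± 0.093 and rank 19326, and the ligand genes IL4 and IL13 were at 3.74 ± 0.089 and 5.54 ± 0.22, the first at background and the second just above it, with an exon-level mean under the exon-level ceiling. Among the kinases JAK1 (9.55 ± 0.13) and JAK2 (9.41 ± 0.15) were bright, TYK2 was at 9.08 ± 0.13, and JAK3 was lowest at 7.27 ± 0.36. Among the STAT genes STAT3 was at 9.80 ± 0.32, STAT5A at 9.04 ± 0.46 and STAT5B at 8.76 ± 0.24, and STAT4 was at background at 5.06 ± 0.30. The kinase PIM2, a STAT target, was bright at 9.96 ± 0.27, and the feedback inhibitor SOCS1 was at 8.07 ± 0.14.

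In the B-cell receptor signalling list 1 of 14 genes was bright, 9 were between and 4 at background. These shares, 7.14% bright and 28.6% at background, lay near those of all genes, 9.79% and 32.8%. The tyrosine kinases SYK and BTK were at background with 5.02 ± 0.092 and 4.44 ± 0.16, and so were the protein kinase PRKCB at 4.92 ± 0.17 and the exchange factor RASGRP3 at 4.17 ± 0.11. Exon-level probe sets above the ceiling numbered 1 of 24 for BTK and 2 of 15 for SYK. The phosphatase INPP5D, the kinase subunit PIK3CD and the adaptor GRB2 were between at 8.54 ± 0.16, 8.54 ± 0.095 and 8.11 ± 0.066. The single bright gene was PLCG2, whose readings disagreed as described above.

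**Figure D3:**
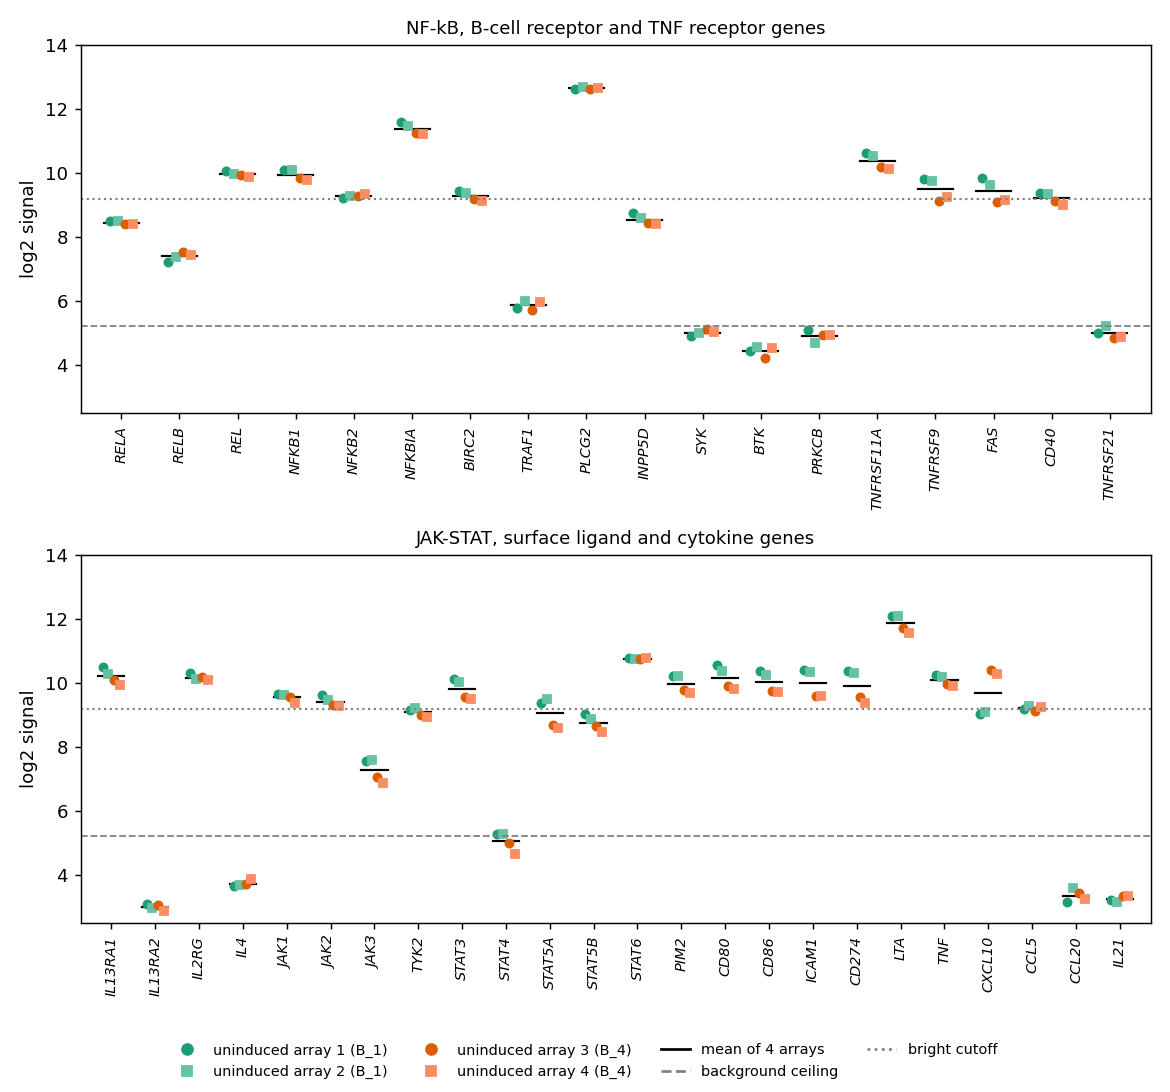
Log2 signal of signalling genes in each uninduced array (y axis; points are arrays, B_1 green and B_4 orange; black bars are means of 4 arrays), with the background ceiling dashed and the bright cutoff dotted. REL, NFKB1, NFKB2, STAT6, JAK1 and JAK2 lie above the dotted line, while SYK, BTK, PRKCB and IL13RA2 lie under the dashed line and STAT4 lies around it.

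In the TNF receptor family 17 of 18 genes were above background. The bright members were TNFRSF11A, the receptor of the bone-remodelling ligand RANKL, at 10.36 ± 0.25, TNFRSF9 at 9.49 ± 0.35, the death receptor FAS at 9.43 ± 0.36 and CD40, which receives T-cell help, at 9.21 ± 0.17. The B_4 means of FAS (9.13) and CD40 (9.08) were under the bright cutoff, and that of TNFRSF9 (9.187) lay next to it. TNFRSF21 was at background at 4.998 ± 0.17. Of 16 surface ligands that act on T cells, 5 were bright. These were the costimulators CD80 (10.16 ± 0.37) and CD86 (10.02 ± 0.33), the adhesion molecule ICAM1 (9.98 ± 0.45), and the inhibitory ligands CD274 and PDCD1LG2. TNFSF4 and VTCN1 were at background at 4.17 and 3.95.

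Of 32 cytokine and chemokine genes 13 were at background (40.6%, against 32.8% of all genes) and 4 were bright. The bright ones were LTA, TNF at 10.08 ± 0.16, CXCL10 and CCL5 at 9.21 ± 0.073. The B_4 mean of CCL5, 9.17, was just under the bright cutoff. CXCL10, an interferon-induced attractor of T cells, gave 9.02, 9.10, 10.40 and 10.26, with both B_4 arrays above the bright cutoff and both B_1 arrays under it. The lowest were IL21, IL5, CCL20 and CCL4, from 3.27 to 3.40. IL1R2, a decoy receptor for IL-1, stood outside the lists among the bright surface genes at 11.67 ± 0.11, with TMEM123 at 12.07 ± 0.14, SERINC3 at 11.31 ± 0.17, TSPAN3 at 11.20 ± 0.051 and the monocarboxylate transporter family member SLC16A4 at 11.17 ± 0.66.

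The interferon list had 25 of 27 genes above background and 5 bright. IFI44L was highest at 10.40 ± 0.17, followed by IFITM1 at 10.23 ± 0.22, MX1 at 9.85 ± 0.21 and IFI35 at 9.70 ± 0.33. MX2, the paralogue of MX1, and the antiviral enzyme RSAD2 were at background at 4.95 ± 0.20 and 4.07 ± 0.13. Of 22 listed antigen presentation genes 17 were measured, all above background and 7 bright, and 15 of the 17 had an exon-level mean above the exon-level ceiling. The highest were TAPBP (11.97 ± 0.17), B2M (11.67 ± 0.091), the peptide transporter TAP1 (11.66 ± 0.09) and the immunoproteasome subunit PSMB9 (11.41 ± 0.074).

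Interferon-regulated promoters often carry GAAA, 2 bases of any kind and GAAA, the core read by interferon regulatory factors. Searched on both strands, this pattern occurred in 13 of the 21 interferon list windows (61.9%), 3 of 5 bright and 10 of 15 between, against 2.57% of the matched genes and 3.07% of all windows. RSAD2, at background, had the 1 window of that class and no match. The stretches with the first match are printed 5′ to 3′ for 4 bright genes chosen after the search, of which only IFI44L is in the interferon list; its other bright matches, IFITM1 and IFIH1, are not shown. CD274, CXCL10 and TAP1 come from other lists and were picked from genes described above. Among the antigen presentation genes described above, TAPBP and B2M also had a match and are not shown, and PSMB9 had none. Each is given with the match in capitals (TTTC marks a match on the opposite strand). They lie at chr9:5450319-5450358 (plus strand) for CD274, chr1:78620269-78620308 (plus) for IFI44L, chr4:76023694-76023733 (minus) for CXCL10 and chr6:32853814-32853853 (minus) for TAP1.
CD274: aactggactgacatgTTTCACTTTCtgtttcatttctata
IFI44L: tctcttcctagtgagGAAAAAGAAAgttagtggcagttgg
CXCL10: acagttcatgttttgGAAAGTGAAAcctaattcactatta
TAP1: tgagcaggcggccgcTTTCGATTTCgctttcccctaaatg

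In the list of AP-1 and MAP kinase feedback genes 2 of 22 were bright, BATF3 and JUNB (9.37 ± 0.18). JUN (9.15 ± 0.17) and BATF (8.80 ± 0.24) followed. FOS was next to the ceiling, with means of 5.21 in B_1 and 5.55 in B_4. FOSB gave 6.19 and 6.26 and EGR1 gave 6.89 and 7.18 in the same order. MAF, DUSP4 and SPRY2 were at background at 4.80, 4.06 and 3.54. Apoptosis regulators were above background in 18 of 19 cases. The survival genes BCL2L1 (11.20 ± 0.33), MCL1 (10.52 ± 0.20) and CFLAR (9.89 ± 0.50) were bright, and so was the death-promoting PMAIP1 (10.64 ± 0.18). The other probe set of CFLAR was between at 7.77. CASP10, at 5.23 ± 0.25, lay on the ceiling: array 1 was above it and arrays 2 to 4 were not. Without array 2 or without array 4 its mean passed the ceiling.

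In glycolysis 11 of 26 genes were bright (42.3%), among them LDHB (12.61 ± 0.054), LDHA (12.17 ± 0.35), PKM (12.44 ± 0.20) and PGK1 (11.81 ± 0.22). The glucose transporters SLC2A1 and SLC2A3 were bright at 9.61 ± 0.37 and 9.21 ± 0.11. The 4 genes at background were the testis forms LDHC (3.87 ± 0.18), PGK2 (4.07 ± 0.052) and GAPDHS (4.79 ± 0.15) and the hexokinase HK3 (4.997 ± 0.09). The hexokinases HK2 and HK1 were between at 9.09 ± 0.20 and 7.84 ± 0.14. Forms of restricted tissue range were not all low: the neuronal enolase ENO2 was bright at 10.15 ± 0.15, and the muscle forms PGAM2 and ENO3 and the liver and red-cell kinase PKLR were between at 6.51 ± 0.097, 6.42 ± 0.15 and 5.63 ± 0.11, the last with an exon-level mean under the exon-level ceiling.

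Oxidative phosphorylation had 17 of 26 genes bright (65.4%), led by the ATP synthase subunits ATP5F1B (13.01 ± 0.067), ATP5F1A (11.46 ± 0.10) and ATP5F1C (10.99 ± 0.17) and by UQCRC2 of complex III (10.94 ± 0.076). The muscle form COX7A1 (5.09 ± 0.12) and the testis form COX8C (3.69 ± 0.094) were at background, the first with an exon-level mean just above the exon-level ceiling, and their widely expressed paralogues COX7A2 and COX8A were at 9.35 ± 0.23 and 8.59 ± 0.10. The muscle form COX6A2 and the lung form COX4I2 were above background at 6.43 ± 0.19 and 5.43 ± 0.17, the second with an exon-level mean under the exon-level ceiling.

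Of 18 serine and folate genes 6 were bright and 4 at background. The mitochondrial enzymes SHMT2 and MTHFD2 were bright at 12.05 ± 0.17 and 11.34 ± 0.26, with the cytosolic SHMT1 between at 6.89 ± 0.17. PHGDH, the entry enzyme of serine synthesis, was close to the ceiling at 5.51 ± 0.13, with an exon-level mean under the exon-level ceiling, while PSAT1, the next enzyme of that route, was bright at 9.62 ± 0.38. MAT2A, which makes S-adenosylmethionine outside the liver, was bright at 11.73 ± 0.044, and its liver counterpart MAT1A was at background at 4.76 ± 0.11. The mitochondrial folate enzymes ALDH1L2 and MTHFD2L were also at background, at 4.10 and 4.91.

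Of 19 genes of glutamine and amino acid supply 5 were bright and 5 at background. The transporters were led by SLC38A2 (10.96 ± 0.33), SLC7A5 (10.18 ± 0.63) and its partner chain SLC3A2 (9.62 ± 0.42), and GOT2, a mitochondrial transaminase, was at 10.77 ± 0.031. SLC38A1 was at background at 4.21 ± 0.32, as were the tryptophan-degrading IDO1 (3.81 ± 0.13) and the arginase ARG1 (3.59 ± 0.14). All 18 measured genes of cholesterol synthesis and uptake were above background and 7 were bright, with CYP51A1 at 10.59 ± 0.038, HMGCS1 at 10.52 ± 0.12, SQLE at 10.33 ± 0.19 and the sterol sensor INSIG1 at 9.79 ± 0.052.

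Of 22 genes around arachidonate 5 were bright and 6 at background, and ALOX15 was the single bright lipoxygenase. Its paralogue ALOX15B was at 5.998 ± 0.19 and ALOX5 at 5.70 ± 0.32, both with an exon-level mean under the exon-level ceiling, and ALOX12 was at background at 5.03 ± 0.062. The cyclooxygenases PTGS1 and PTGS2 were at background at 4.69 ± 0.10 and 3.50 ± 0.13, and so was the prostaglandin D synthase HPGDS at 3.13 ± 0.14. GPX4, which reduces lipid peroxides, was bright at 10.61 ± 0.39, and so was the leukotriene receptor CYSLTR2 at 9.99 ± 0.28. PTGES3, a cochaperone also named as a prostaglandin E synthase, was at 11.84 ± 0.18.

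Of 31 detoxifying and redox genes 9 were bright, 11 between and 11 at background. GSTM1 was bright at 12.44 ± 0.35, GSTM2 between at 6.51 ± 0.66 and GSTM3 at background at 3.50 ± 0.13. GSTM genes are close in sequence, so hybridisation of one to another's probes cannot be told apart here. MGST3 was bright at 12.30 ± 0.12 with MGST1 at background at 3.79 ± 0.19, and MAOA was bright at 11.05 ± 0.37 with MAOB at background at 4.86 ± 0.37. CYP1B1 was bright at 10.56 ± 0.068, against 4.55 ± 0.18 for CYP1A1 at background. The liver and gut list was the least bright of the metabolic lists: 15 of 16 genes were at background, from 3.16 for FABP2 to 5.11 for LCT.

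**Figure D4:**
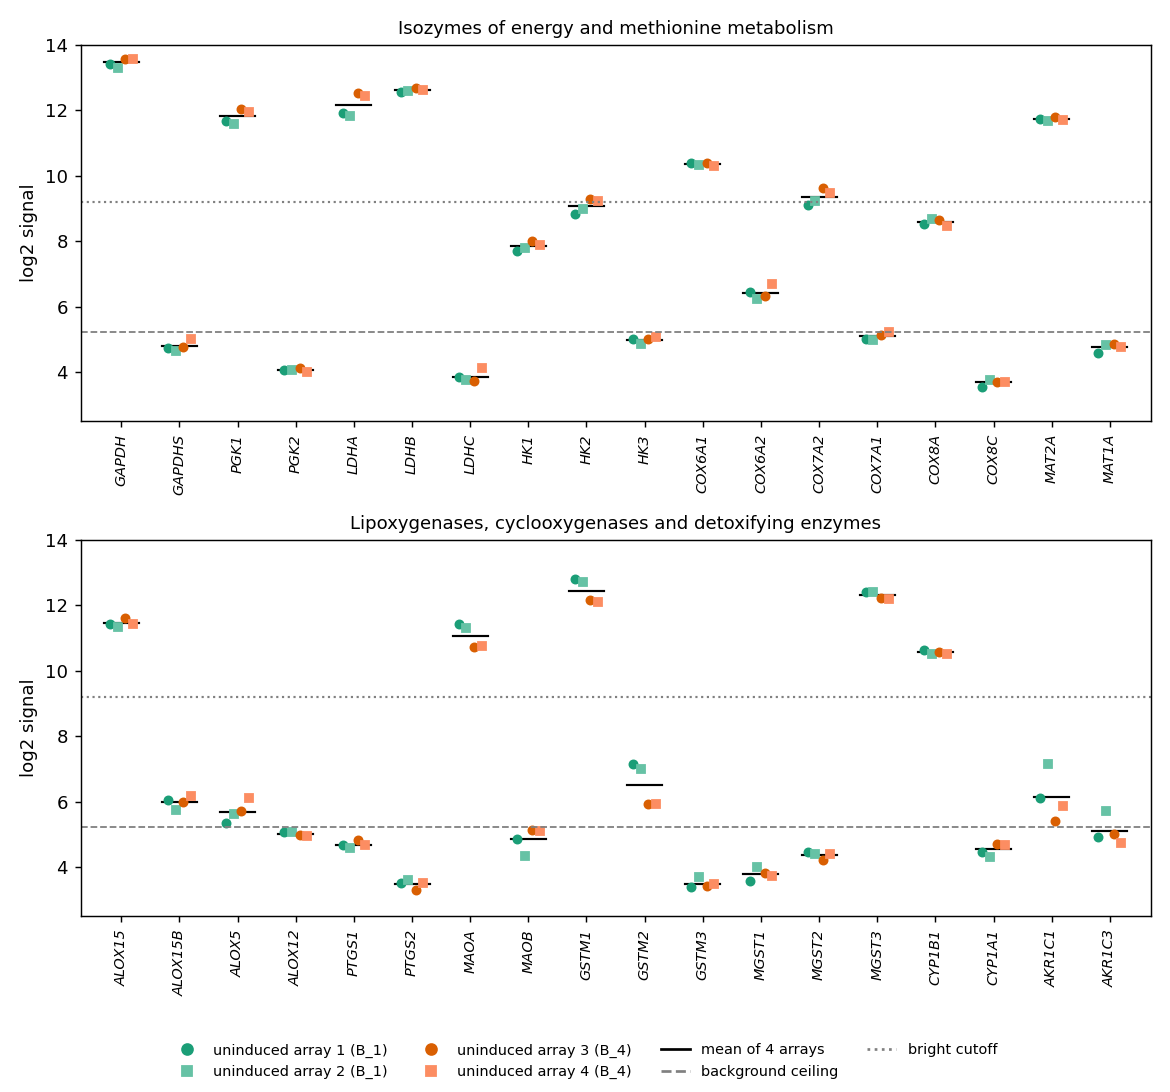
Log2 signal of selected metabolic isozymes, some of them chosen after their values were seen, in each uninduced array (y axis; points are arrays, B_1 green and B_4 orange; black bars are means of 4 arrays), with the background ceiling dashed and the bright cutoff dotted. GAPDH, PGK1, LDHA, LDHB, MAT2A, ALOX15, MAOA and GSTM1 lie above the dotted line, while GAPDHS, PGK2, LDHC, MAT1A, ALOX12, MAOB and GSTM3 lie under the dashed line.

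Cell division genes had 18 of 26 members bright and none at background. The mitotic cyclin CCNB1 was at 10.96 ± 0.19, the helicase subunit MCM6 at 10.58 ± 0.058, topoisomerase TOP2A at 10.54 ± 0.053 and the replication clamp PCNA at 10.50 ± 0.26. Over the domains, 24 of 164 lineage, 45 of 209 signalling, 60 of 176 metabolic and 61 of 75 housekeeping memberships were bright, and 62, 29, 47 and 0 were at background. A gene in several lists counts in each. Of 698 listed memberships 624 had a probe set with 1 symbol, and the others were not analysed here.

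**Figure D5:**
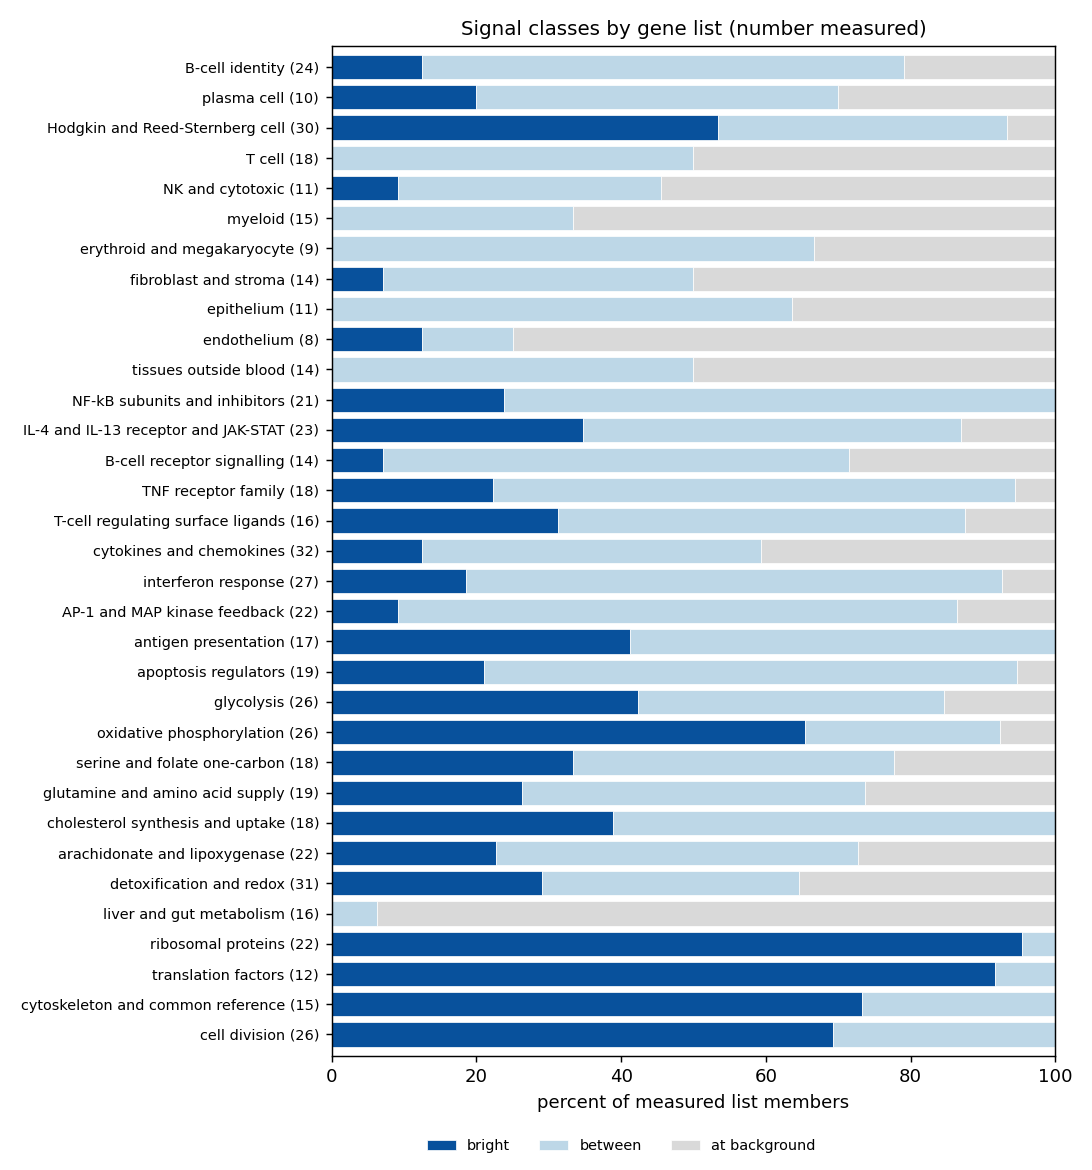
Percent of measured members (x axis) of each of 33 gene lists (rows, number measured in brackets) that were bright, between or at background over the 4 uninduced arrays. Ribosomal proteins have the largest bright share, 95.5%, and the liver and gut list the largest background share, 93.8%.

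The 4 arrays differed by B code. Limma, with Benjamini-Hochberg adjustment over the 12370 genes above background, called 1781 genes (14.4%) at an adjusted p under 0.05, 563 higher and 1218 lower in B_4. Without array 1 the count was 901, and without array 2 it was 1129; what differs between the codes is not stated in the labels and was not tested. The largest fitted difference downward in B_4 was that of SPX, which encodes the peptide hormone spexin, with 8.04, 7.75, 5.64 and 5.46 in arrays 1 to 4 (B_4 minus B_1 -2.35, SE 0.12, limma adjusted p = 4.77e-08). Its B_4 mean, 5.55, was near the ceiling and under the 99th percentile of the olfactory receptors, 5.94, so the size is uncertain. The stress-induced transcription factor DDIT3 and the mitochondrial carrier SLC25A27 differed by -1.50 and -1.43. The signalling protein gene BMP10, also among the 4 largest fitted differences downward, gave 6.50, 6.70, 4.76 and 5.31. Its B_4 mean and its exon-level mean were under their ceilings, so its difference has no measured size. Of the 1781 called genes 64 had the mean of 1 code at background in this way. The largest upward were those of the small nucleolar RNA SNORD14E (1.84), CXCL10 (1.27), the plasma cell receptor TNFRSF17 (1.23) and the homing receptor GPR15 (1.21). The B_1 means of SNORD14E, 5.80, and TNFRSF17, 5.36, were also under 5.94, so the sizes of these 2 differences are uncertain as well. TNFRSF17 gave 5.24, 5.48, 6.65 and 6.53, next to the ceiling in both B_1 arrays and above it in both B_4 arrays. Only 3 of 8 of its exon-level probe sets were above theirs, and its exon-level mean minus the exon-level ceiling was -1.11.

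Of the marker genes, CD274 differed by -0.87 (SE 0.11, limma adjusted p = 0.000117), GATA3 by -0.83 (adjusted p = 0.000122) and IL13RA1 by -0.37 (adjusted p = 0.0359), all lower in both B_4 arrays. The call of IL13RA1 was lost without array 1 (limma adjusted p = 0.337), without array 4 (0.150), after quantile normalisation (0.055) and with no filter on background genes (0.0724). ALOX15 differed by 0.13 (limma adjusted p = 0.453) and RELB by 0.20 (adjusted p = 0.239), neither past the threshold, with SEs of 0.11 and 0.11, which does not show that the codes were alike for them. In the glycolysis list 10 of 22 tested genes were called, all higher in B_4, and in cell division 10 of 26, all higher. In glycolysis 5 were called without array 1, 6 without array 2 and 6 without array 3, again all higher in B_4. Among amino acid supply genes 7 of 14 were called, 6 of them lower in B_4, with SLC7A5 at -1.09 (adjusted p = 1.71e-05). In the JAK-STAT list 6 of 20 were called, all lower in B_4, including STAT5A (-0.79) and STAT3 (-0.55). After quantile normalisation 4 of these 20 were called, again all lower in B_4. The Hodgkin and Reed-Sternberg list had the most calls, 12 of 28, with 4 higher and 8 lower in B_4, and 6 calls without array 1. The TNF receptor family had 7 of 17, with 3 higher and 4 lower, and 4 calls without array 1. In antigen presentation limma called 0 of 17 genes, with 6 at an unadjusted p under 0.05 and 2 calls without array 3. Over the 33 lists, 12 had calls in both directions, 4 only higher in B_4, 10 only lower and 7 none. The AP-1 list counts among the 12 only through FOS, whose B_1 mean, 5.21, was under the ceiling of 5.23. The shares called in these lists stand against 14.4% of all genes tested.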

How the data were processed

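The authors' deposited gene-level and exon-level tables hold log2 signals of total RNA on Affymetrix whole-transcript arrays. The submitters' processing notes name RMA and Partek but no version. The log base is not stated: RMA normally gives base 2, and the range of the values fits it. The genome build is not given in the sources used here. RMA equalises the distributions of arrays, so levels are relative within an array set. Precision is limited by the number of arrays, 4.

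Here probe sets were named from the platform annotation, and the symbols of 27 ranked probe sets were updated through RefSeq (GRCh38.p14). Probe sets with several symbols (1754) or none were not ranked. Each gene was represented by its brightest probe set. Classes, exon-level readings and promoter features are descriptions without a test. The B code difference was fitted with limma 3.58.1 in R 4.3.3 on genes above background, with 2 residual and 13.1 prior degrees of freedom. The fit was tested on simulated data. Python 3.11.15, pandas 2.3.3 and numpy 2.4.6 did the rest. Alternatives covered the ceiling, its reference, the bright cutoff, the exon-level table, normalisation, the filter and each array left out.

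The members, lists and markers were chosen with earlier results of these data known. Named genes were RELB, the 4 markers, the 25 highest probe sets, the 4 brightest and up to 4 lowest background members of each list, the NF-kB subunits, JAK and STAT genes, the 8 largest SDs, the 4 largest B code differences each way, 5 bright surface genes and the defining cell type markers. IL4R, IL13, SOCS1, NFKBIZ, PDCD1LG2, HPD, LDHA, PGK1, HK1, HK2, SLC2A1, SLC2A3, COX7A2, COX8A, SHMT1, PHGDH, PSAT1, ALOX5, ALOX12, ALOX15B, MAOB, CYP1A1, CYP1B1, ENO2, ENO3, PGAM2, PKLR, COX4I2, COX6A2, GSTM2 and IFIH1 were added after their values were seen.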

Additional observations from a re-analysis of the deposited data

Results flagged for a closer look

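Among 271 genes examined one by one, 7 (2.58%) had 1 array far from the other 3, where chance alone gives about 1 group in 20. In array 4 the signal was highest for NKG7, at 6.90 against 6.30 for the nearest array, and for CD7, at 8.09 against 7.82. In array 1 it was lowest for KRT18, at 6.75 against 7.28, for PCK1, at 4.59 against 4.71, and for ARG1, at 3.39 against 3.63. Array 2 was lowest for MRC1, at 3.71 against 3.98, and array 3 for KLRB1, at 3.08 against 3.21. PCK1, ARG1, MRC1 and KLRB1 were at background in all arrays.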

How the results depend on the processing

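The number of probe sets at background was 6341, and 13270 with keratin-associated, taste receptor, defensin and crystallin genes as the background reference, whose ceiling is 7.50. It was 5174 and 8588 with the 90th and 99th percentile of the olfactory receptors, 5867 when each array had to be at or under its own ceiling, 6025 with 1 probe set per gene, and 6293 to 6408 with 1 array left out. The number of bright probe sets was 1946, 973 with the top 5%, and 884 with a mean log2 of 10 or more. The direction against the ceiling of the genes named here held under each array left out except for CASP10, whose mean minus the ceiling ran from -0.15 without array 1 to 0.081 without array 4 and was 0.043 without array 2. Values below are a gene's log2 signal minus the ceiling of the setting named, for genes that crossed to the other side.

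With the second reference, 38 named genes came under the ceiling: -1.50 for ALOX15B, -1.80 for ALOX5, -1.69 for BMP10, -0.91 for CCL17, -1.77 for CD79A, -1.18 for CD79B, -0.77 for COL1A1, -1.75 for COL1A2, -1.79 for COL3A1, -2.08 for COX4I2, -1.07 for COX6A2, -0.53 for ELANE, -1.08 for ENO3, -1.78 for GFAP, -0.996 for GSTM2, -1.96 for IL13, -0.23 for JAK3, -0.76 for KLF1, -0.33 for KRT18, -0.64 for KRT8, -0.66 for MBP, -1.80 for NFKBIZ, -1.06 for NKG7, -0.99 for PGAM2, -1.99 for PHGDH, -1.88 for PKLR, -0.22 for PRDM1, -0.10 for RELB, -0.69 for SDC1, -1.75 for SFTPC, -0.61 for SHMT1, -0.49 for SLC25A27, -0.78 for SNORD14E, -0.78 for SPX, -1.35 for TBX21, -1.53 for TNFRSF17, -0.61 for TNFRSF8 and -1.63 for TRAF1. With the 99th percentile, 13 came under it: -0.24 for ALOX5, -0.12 for BMP10, -0.21 for CD79A, -0.19 for COL1A2, -0.22 for COL3A1, -0.51 for COX4I2, -0.22 for GFAP, -0.40 for IL13, -0.23 for NFKBIZ, -0.43 for PHGDH, -0.31 for PKLR, -0.19 for SFTPC and -0.066 for TRAF1. With the 90th percentile, 16 came above it: 0.18 for ALOX12, 0.38 for CASP10, 0.11 for CD8A, 0.25 for COX7A1, 0.25 for CSF1R, 0.30 for GNLY, 0.29 for HBB, 0.15 for HK3, 0.26 for LCT, 0.012 for MAOB, 0.059 for MTHFD2L, 0.10 for MX2, 0.077 for PRKCB, 0.21 for STAT4, 0.17 for SYK and 0.15 for TNFRSF21. With the exon-level mean against the exon-level ceiling, 11 crossed: -0.049 for ALOX15B, -0.18 for ALOX5, -0.046 for BMP10, -0.25 for CD79A, -0.33 for COX4I2, 0.012 for COX7A1, -0.029 for GFAP, -0.19 for IL13, -0.13 for PHGDH, -0.34 for PKLR and -1.11 for TNFRSF17. When all arrays had to lie on the side of the mean, against their own ceilings, 5 crossed, with the value of the array farthest to the other side being -0.48 for BMP10, 0.39 for CASP10, -0.018 for COX4I2, 0.0041 for COX7A1 and 0.094 for STAT4. The number of members at background moved by over 1.5 times in 27 of 33 lists with the second reference, in 13 with the 99th and 8 with the 90th percentile, in 5 at exon level and in 3 under the rule on all arrays.

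The count of genes called between B codes was 1781, 2733 with a variance trend and robust fitting, 2693 at an adjusted p under 0.1, 1282 with no filter, 1211 after quantile normalisation, and 901 to 2124 with 1 array left out, where the lone array of a code is assumed to vary like the others. Of the calls 31.6% were higher in B_4, and 41.1% after quantile normalisation. With the last number of the titles as a replicate block 1525 genes were called, 1492 of them among the 1781. The deviations of arrays with the same number correlated at 0.043, with 2 pairs, so the numbers were not taken to pair the arrays. The array number, 4, and the overlap of dim signals with the receptors limit what can be said of genes near the ceiling.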
